A study of Mus musculus with 6 samples.

Results

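The fusogens of myoblasts and the pathway that leads from adhesion to Rac were followed through 10 genes, chosen by name, and 10 of 10 were found among the 16854 genes of the deposited table. They are the fusogens Mymk and Mymx, the adhesion receptor Vcam1, the adaptors Elmo1 and Elmo2, the exchange factors Dock1 and Dock5, the GTPase Rac1, and the ferlins Myof and Dysf. RNA came from C2C12 cells, a mouse myoblast line, on day 3 after a switch to 2% horse serum, which induces differentiation. The 3 control libraries came from cells with a scramble hairpin, and the 3 knockdown libraries from cells stably expressing a hairpin against Adamtsl2, which encodes a secreted matrix protein. By its title the study concerns Wnt signalling in muscle formation, and the comparison here asks how the fusion genes differed between these cell populations. Whether either population was a clone or a pool is not given in the sources used here. Loss of Adamtsl2, off-target action of the hairpin and any other difference between the populations cannot be told apart.

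Myoblasts become multinucleated myotubes by fusing their membranes. Myomaker, encoded by Mymk, and the small protein myomixer, encoded by Mymx, act in the membrane to drive this step. Rac1 controls the actin cytoskeleton that pushes the cells together, and it is switched on by DOCK proteins working with ELMO adaptors. Ferlins are calcium-binding membrane proteins, of which myoferlin (Myof) is best known in fusing myoblasts and dysferlin (Dysf) in membrane repair of mature fibres.

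Reads recovered from the normalised values totalled 37346439 to 50329438 per library. Knockdown library 3 stood apart: its log2 values correlated across genes with those of knockdown libraries 1 and 2 at 0.917 and 0.920, against 0.996 between those 2 libraries. Relative to their mean, among the shortest 4053 genes by exonic length (up to 2208 bases) the median gene was 0.59 higher in library 3 on the log2 scale. Among the longest 4052 (from 6180 bases) it was 0.37 lower. Malat1, a nuclear RNA, took 2.83% of reads in library 3 and 0.302% to 0.515% in the others. Of the 10 fusion genes, 9 were lowest of the knockdown libraries in library 3, against 49.0% of genes tested, and 7 are among those longest genes. The part of transcript length or RNA quality in the results below was not tested. Results for the 10 genes and the counts called in the pathway lists are given with and without that library. Most other genes and the marker sums are given with all 6 libraries only. Adamtsl2 itself fell from 1325, 1266 and 1307 normalised counts in control to 23.2, 21.7 and 7.83 in the knockdown (log2 change -6.26 ± 0.41 SE; limma, adjusted p = 1.1e-04). Skeletal muscle markers fell with it: 10 of 11 were lower and Myf5 was higher. Their summed level was 1194450 to 1233750 normalised counts in control and 9691 to 11003 in the knockdown, and the myoblast gene Pax7 was listed at 0 in knockdown libraries 1 and 2.

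At an adjusted p under 0.05 in limma, a linear model fitted across all genes, 3 of the 10 genes fell in the knockdown (Mymk, Mymx and Dysf), 2 rose (Vcam1 and Elmo1), and 5 did not pass (Elmo2, Dock1, Dock5, Rac1 and Myof). Over all 16245 genes tested, 45.2% were called, 21.7% higher and 23.5% lower, so 5 of 10 is close to the background. The groups did not overlap for the same 5 genes, against 62.6% of all genes tested. The median log2 change of the 10 genes was -0.11, and that of all genes tested was -0.00135. Without knockdown library 3, 6 rose, 3 fell and Rac1 did not pass, against a background of 78.5% (38.6% higher and 39.9% lower). On recovered reads, edgeR called 2 higher and 3 lower, against 23.2% and 22% of all genes, and DESeq2 called 3 higher and 3 lower, against 26.7% and 25.3% (52.1% in all). The p-values compare 3 with 3 libraries, or 3 with 2 where 1 is left out, and nothing in the labels says that these came from separate cultures, so the spread may be technical. The plot of the 10 genes by library shows these values.

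**Figure D1:**
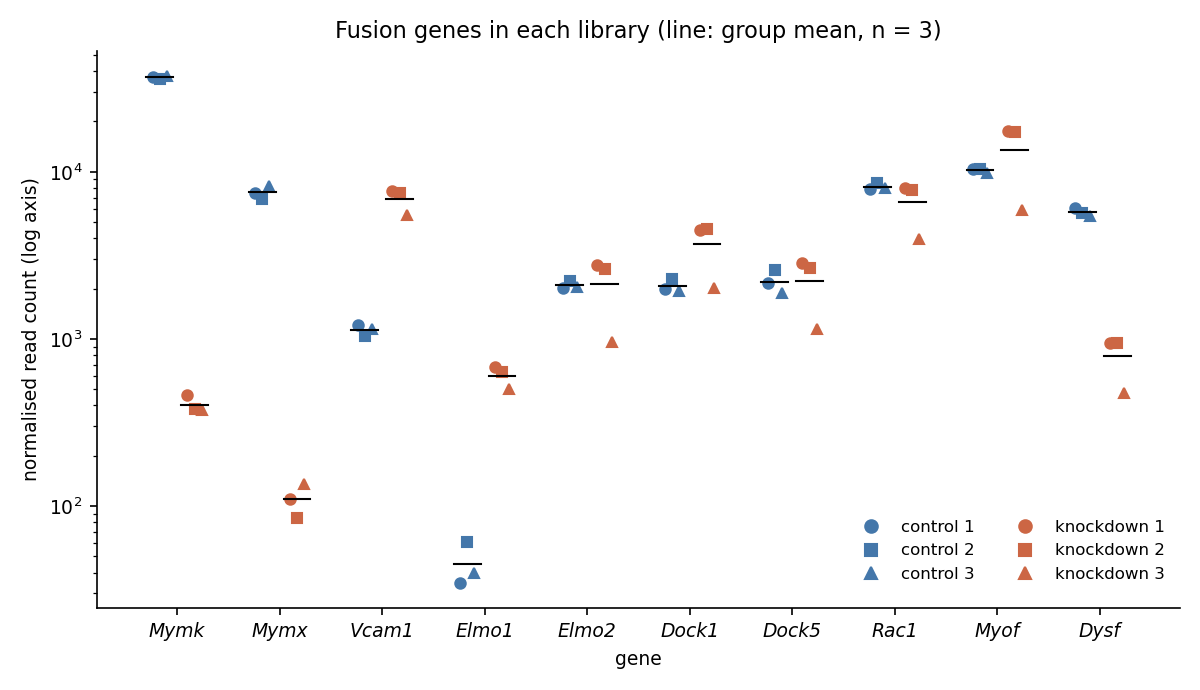
Normalised read counts (log axis) of the 10 fusion genes in 3 control and 3 knockdown libraries, with a line at each group mean. Mymk, Mymx and Dysf lie lower and Vcam1 and Elmo1 higher in every knockdown library, while knockdown library 3 (triangle) lies below the other knockdown libraries for 9 of the 10 genes.

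The fusogens had the largest changes of the 10 genes. Mymk (GRCm38 chromosome 2, 27061636 to 27072179, minus strand) had 37074, 35740 and 37376 normalised counts in the control (libraries 1 to 3) and 459, 381 and 374 in the knockdown. All knockdown values were low, library 3 among them, and the groups did not overlap. The mean went down from 36730 ± 871 to 405 ± 47.3 counts (SD, n = 3). This was a log2 change of -6.51 ± 0.12 SE or 90.9-fold (limma, adjusted p = 3.7e-06). Mymx (chromosome 17, 45600971 to 45602102, minus strand) had 7463, 6828 and 8267 counts in control and 109, 84.5 and 136 in the knockdown. Here library 3 was the highest of the knockdown libraries, and the groups again lay far apart. The log2 change of Mymx was -6.10 ± 0.20 SE, or 68.7-fold (limma, adjusted p = 1.1e-05). In bulk RNA, fewer cells that express a gene and less of its RNA per cell cannot be told apart.

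The RNA of neither fusogen was absent from knockdown cells. Per kilobase of exon, Mymk had 24308 ± 576 normalised counts in control and 268 ± 31.3 in the knockdown, and Mymx 7321 ± 702 and 107 ± 25.3 (SD, n = 3). In control, Mymk and Mymx were thus the highest of the 10 genes per length, above Rac1 at 1807 ± 79.0, and their ranges did not overlap with each other or with that of Rac1. In the knockdown the order of levels per kilobase was Rac1, Myof, Vcam1, Dock1, Elmo2, Mymk, Dock5, Mymx, Dysf and Elmo1. Neighbours in that order overlapped between libraries except Vcam1 and Dock1, Mymk and Dock5, and Dysf and Elmo1.

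Vcam1 encodes an immunoglobulin-type adhesion receptor that binds integrins of other cells. It had 1215, 1045 and 1150 normalised counts in control and 7641, 7450 and 5503 in the knockdown. All 3 knockdown libraries were above all controls. The gene (chromosome 3, 116109949 to 116129688, minus strand) rose 5.98-fold, a log2 change of 2.58 ± 0.16 SE (limma, adjusted p = 9.8e-05), and by 2.73 without knockdown library 3. Exons of Vcam1 share 61 bases with the antisense gene Gm43109, which was not analysed here. Itgb7, a partner subunit of VCAM-1-binding integrins, rose from 15.3, 10.1 and 14.3 counts to 45.6, 42.7 and 95.02 (log2 2.05 ± 0.40; limma, adjusted p = 0.0074). The control values of Itgb7 lay near the minimum of 10 used for testing, and the integrin gene Itga4 was not read beside it. Itgb1, the common beta subunit of matrix and VCAM-1-binding integrins, fell by 1.18 ± 0.30 on the log2 scale (limma, adjusted p = 0.021, and 0.072 to 0.074 without any 1 control library).

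Vcam1 is also expressed in other cell types, whose markers were read beside it. Of 4 endothelial markers in the table, 3 were tested, of which 2 were higher (Tek and Flt1) and 1 lower (Vwf). The summed level of the 4 was 192 to 252 normalised counts in control and 228 to 577 in the knockdown. Knockdown libraries 1 and 2, at 230 and 228, lay within the control range, and only library 3 lay above it. That sum joins opposite changes of single genes. Vwf went from 217, 184 and 235 counts in control to 15.8, 10.9 and 69.3 in the knockdown. Flt1 went from 9.81, 1.26 and 10.5 to 196, 193 and 417. The endothelial genes Cdh5, Kdr, Tie1 and Emcn were not analysed here. Of 5 leukocyte markers, 2 were higher (Cd14 and Lyz2) and 1 lower (Itgam), with sums of 236 to 281 and 1054 to 1374. Most of the knockdown sum was Cd14, which went from 136, 136 and 141 counts to 948, 1120 and 1182. Cd68 and Csf1r did not pass with all 6 libraries, and Ptprc, Adgre1 and Tyrobp were not analysed here. Of 7 fibroblast or mesenchymal markers, 3 were higher (Dcn, Ly6a and Cd34) and 4 did not pass, with sums of 465454 to 492674 and 334920 to 474537. Thy1 and Tcf21 of that list were not analysed here. Col3a1 made up most of the control sum (mean 467593), and 334920 was knockdown library 3 alone. Col3a1 and Lum were at -0.81 and -0.29 on the log2 scale (limma, adjusted p = 0.18 and 0.11). Without knockdown library 3 they were at -0.38 and -0.32 (limma, adjusted p = 0.0018 and 0.0069). Pdgfra then rose by 0.89 (limma, adjusted p = 2.9e-06), and Dpt did not pass. Cd34, a surface sialomucin of progenitor cells, went from 242, 284 and 295 counts to 24334, 25869 and 17936 (log2 6.36 ± 0.18). Ly6a, which encodes Sca-1, went from 74.1, 84.6 and 72.2 to 15830, 16565 and 24681 (log2 7.90 ± 0.20; limma, adjusted p under the threshold for both). Of 3 adipocyte markers 2 were higher, Pparg and Cebpa (sums of 3600 to 3701 and 8853 to 16092). Most of the control sum was Lpl, which went from 2875, 2745 and 2869 counts to 4470, 4378 and 13237 (limma, adjusted p = 0.074). Without knockdown library 3 Lpl rose by 0.64 (limma, adjusted p = 5.7e-07). Adipoq, Fabp4 and Plin1 were not analysed here. Of 7 smooth muscle or pericyte markers 2 were higher and 3 lower (249748 to 280882 and 99738 to 116813). The leukocyte gene Itgam was at 0 in knockdown libraries 1 and 2. The part of such cells or states in the rise of Vcam1 was not tested.

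The ELMO adaptors, which hold DOCK proteins at the membrane, differed from each other. Elmo1 (chromosome 13, 20090596 to 20608353, plus strand) was low in control, at 34.9, 60.6 and 39.9 normalised counts, and reached 675, 632 and 503 in the knockdown. The groups were fully separate. The log2 change of 3.74 ± 0.26 SE corresponds to 13.4-fold (limma, adjusted p = 1.4e-04). Exons of Elmo1 share 403 bases with the antisense gene Gm32036, which was not analysed here. The strand setting of the counting is not given, so reads there cannot be assigned to either gene. Elmo2 (chromosome 2, 165288031 to 165326479, minus strand) had 2029, 2212 and 2039 counts in control and 2765, 2637 and 958 in the knockdown, so knockdown libraries 1 and 2 lay above and library 3 below the controls. Its log2 change was -0.13 (95% interval -1.15 to 0.89; limma, adjusted p = 0.82). Without library 3 the sign turned and Elmo2 rose by 0.37 (interval 0.24 to 0.50; limma, adjusted p = 1.7e-04).

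The start regions of genes matched by symbol were read from a supplied set of RefSeq starts (GRCm38.p6), and that set held 5 of the 10 genes. Mymk, Mymx, Vcam1, Dock5 and Rac1 were not matched. The 250 bases upstream of a start are shown for Elmo1, which rose, for Dysf, which fell, and for Adamtsl2, because its upstream region lies in the 7199 bases between Adamtsl2 and Mymk. The motif searched was the E-box, CANNTG, bound by basic helix-loop-helix factors such as the myogenic ones. A site on either strand is found, because CANNTG is its own reverse complement, and its matches are in capitals, each sequence running 5′ to 3′ on the strand of its gene.
Adamtsl2, chr2:27079129-27079378, plus strand: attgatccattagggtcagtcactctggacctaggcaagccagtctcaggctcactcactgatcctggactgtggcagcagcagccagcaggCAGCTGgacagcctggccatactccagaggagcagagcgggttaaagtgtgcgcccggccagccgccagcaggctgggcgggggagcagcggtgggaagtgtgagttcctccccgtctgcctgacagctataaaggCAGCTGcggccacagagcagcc
Elmo1, chr13:20090257-20090506, plus strand: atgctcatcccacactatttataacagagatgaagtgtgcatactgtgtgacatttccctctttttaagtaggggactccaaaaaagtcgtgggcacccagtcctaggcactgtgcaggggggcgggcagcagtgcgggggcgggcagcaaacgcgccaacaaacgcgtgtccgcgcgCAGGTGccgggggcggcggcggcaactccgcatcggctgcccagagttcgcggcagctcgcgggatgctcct
Dysf, chr6:84008348-84008597, plus strand: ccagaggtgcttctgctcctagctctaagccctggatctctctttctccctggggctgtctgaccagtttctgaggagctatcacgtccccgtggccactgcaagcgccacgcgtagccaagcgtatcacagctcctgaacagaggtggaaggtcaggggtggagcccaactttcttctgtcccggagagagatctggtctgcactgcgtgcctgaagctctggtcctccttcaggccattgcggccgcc
Adamtsl2 has 2 matches, both CAGCTG, whose first bases lie at -158 and -22 from its start, and CAGCTG is a subset of CANNTG. The region of Elmo1 shown has 1 match, CAGGTG at -72, and that of Dysf 0. Of 32851 start regions of 250 bases, 66.2% hold CANNTG and 13% hold CAGCTG. The upstream regions of the other starts in the table hold 0 matches for the other start of Elmo1, that of Dysf and that of Myof, 1 for Dock1, and 0, 1 and 3 for Elmo2. A match or its absence describes only these letters.

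Within the ELMO pair the balance moved toward Elmo1. Per library, the ratio of Elmo1 to Elmo2 was 0.0172, 0.0274 and 0.0196 in control and 0.244, 0.239 and 0.525 in the knockdown. Every knockdown ratio exceeded every control ratio. The log2 ratio rose by 3.87, and the exact two-sided permutation p was 0.1, the smallest that 3 against 3 libraries allow. The same p was found for the 4 gene pairs compared, and it stayed 0.1 after Benjamini-Hochberg adjustment over them. Even so, Elmo2 remained the higher of the pair per kilobase, by 90.2-fold in control and 6.04-fold in the knockdown.

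**Figure D2:**
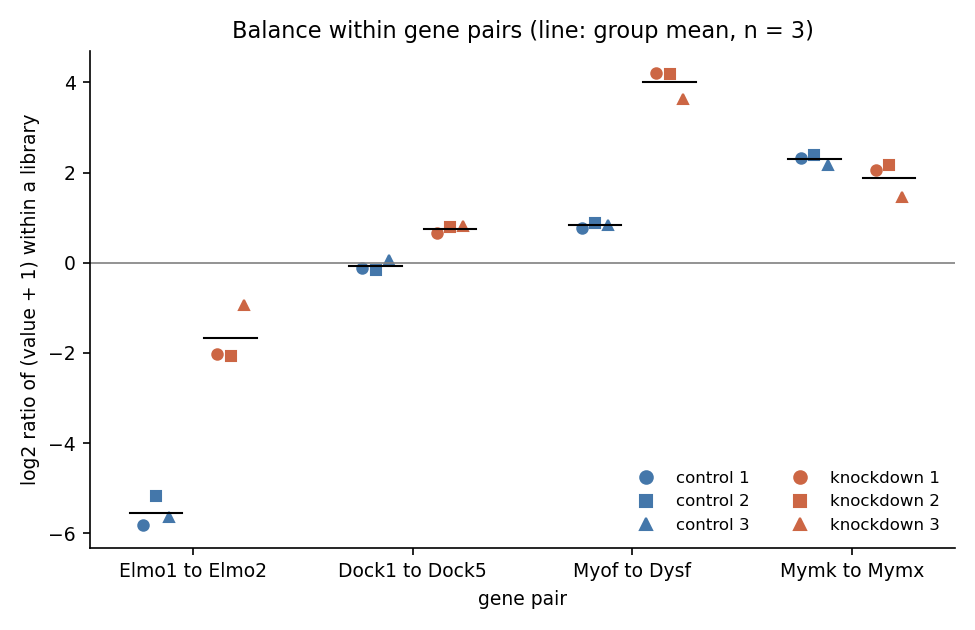
Log2 ratio of 2 genes' normalised counts (each + 1) within each of the 6 libraries, for 4 pairs, with a line at each group mean. Control and knockdown libraries do not overlap for any pair, and the mean shifts are 3.87, 0.83, 3.17 and -0.40 from left to right.

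DOCK1 and DOCK5 are exchange factors that load Rac with GTP. Dock1 (chromosome 7, 134670654 to 135173639, plus strand) had 1978, 2289 and 1942 normalised counts in control and 4513, 4566 and 2014 in the knockdown. Libraries 1 and 2 of the knockdown were high and library 3 lay within the control range. The log2 change of 0.75 ± 0.34 SE (95% interval -0.077 to 1.57) did not pass in limma (adjusted p = 0.12). It was 0.84 with an adjusted p of 0.041 in the authors' deposited table, and 1.14 with an adjusted p of 1.6e-07 in limma without knockdown library 3. Dock5 (chromosome 14, 67752135 to 67933442, minus strand) had 2149, 2575 and 1876 counts in control and 2855, 2656 and 1141 in the knockdown. Its groups overlapped, with a log2 change of -0.087 (95% interval -1.0 to 0.83; limma, adjusted p = 0.87) that became 0.34 (limma, adjusted p = 0.017) without library 3.

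The ratio of Dock1 to Dock5 within a library varied less between knockdown libraries than the levels of the genes themselves. It was 0.920, 0.889 and 1.03 in control and 1.58, 1.72 and 1.76 in the knockdown. Library 3, low for both genes, had the highest ratio of the 3. The log2 ratio rose by 0.83, from -0.080 ± 0.12 to 0.75 ± 0.083 (SD, n = 3; exact two-sided permutation p = 0.1).

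Rac1 (chromosome 5, 143503634 to 143528036, minus strand) encodes the GTPase on which these factors act. It had 7878, 8531 and 7963 normalised counts in control and 8036, 7808 and 3955 in the knockdown. Knockdown libraries 1 and 2 lay within or just below the control range and library 3 was low. The log2 change was -0.37 (95% interval -1.08 to 0.34; limma, adjusted p = 0.35) with 6 libraries. Without library 3 it was -0.036, with an interval of -0.15 to 0.077 (limma, adjusted p = 0.53). Exons of Rac1 share 2309 bases with Daglb on the other strand, and the strand setting of the counting is not given in the sources used here, so reads there cannot be assigned to either gene. Daglb had 445, 485 and 433 counts in control and 866, 814 and 399 in the knockdown.

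The ferlins also parted. Dysf (chromosome 6, 84008590 to 84211060, plus strand) had 6108, 5661 and 5474 normalised counts in control and 951, 943 and 477 in the knockdown, and the groups were far apart. It fell 7.61-fold, a log2 change of -2.93 ± 0.29 SE (limma, adjusted p = 4.9e-04). Its exons share 352 bases with Gm15475 on the other strand, whose mean was 23.7 counts. They also share 105 with the antisense gene Gm33024, which was not analysed here. Myof (chromosome 19, 37899036 to 38043577, minus strand) had 10410, 10409 and 9845 counts in control and 17489, 17193 and 5884 in the knockdown. Libraries 1 and 2 of the knockdown were above and library 3 below all controls. Its log2 change was 0.24 (95% interval -0.82 to 1.31; limma, adjusted p = 0.68). Without library 3 Myof rose by 0.76 (limma, adjusted p = 1.5e-07), and its log2 change was -0.023 without knockdown library 1 and -0.010 without knockdown library 2.

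The ratio of Myof to Dysf was 1.70, 1.84 and 1.80 in control and 18.4, 18.2 and 12.3 in the knockdown. All knockdown ratios were above all control ratios, that of library 3 included. The log2 ratio rose by 3.17, or 9.01-fold (exact two-sided permutation p = 0.1). Per kilobase of exon, Myof was 1.18 times Dysf in control and 10.6 times in the knockdown. The balance of the fusogens moved less: the log2 ratio of Mymk to Mymx went from 2.29 ± 0.11 to 1.89 ± 0.38 (SD, n = 3; exact two-sided permutation p = 0.1), and the shift of -0.40 was -0.18 without knockdown library 3.

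**Figure D3:**
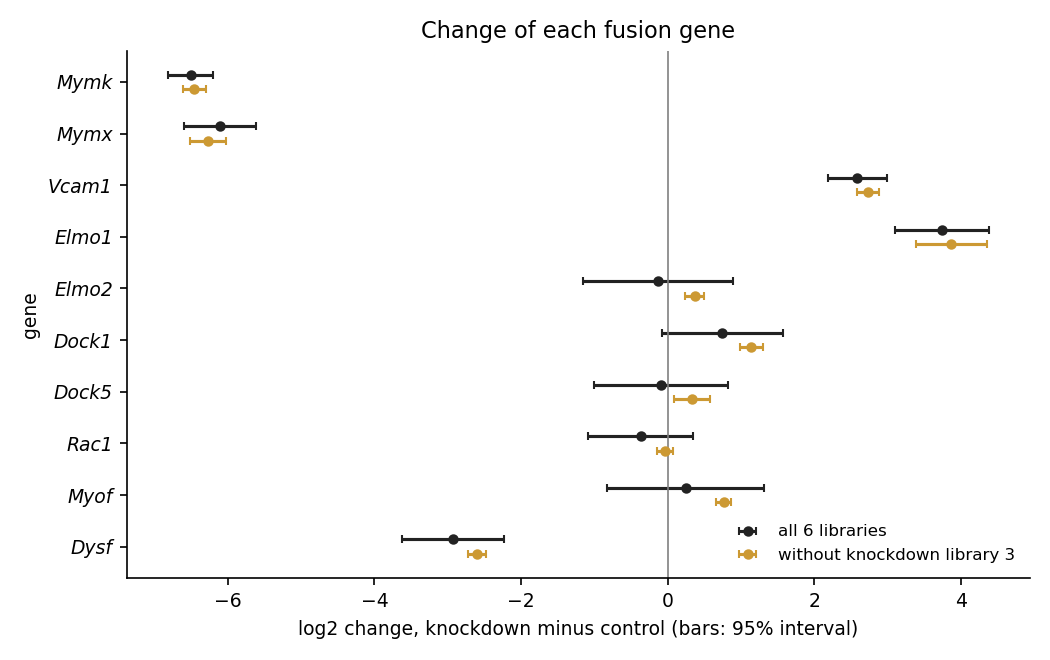
Log2 change, knockdown minus control, of the 10 genes with 95% intervals from limma, for all 6 libraries (black) and without knockdown library 3 (yellow). Mymk, Mymx, Vcam1, Elmo1 and Dysf stay on their side of 0 in both, whereas the intervals of Elmo2, Dock1, Dock5 and Myof lie above 0 only without that library.

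Mymk and the hairpin target are neighbours: their starts lie 7.2 kb apart on opposite strands, facing away from each other. All 16 genes of the table with a start within 250 kb of that of Mymk were therefore read. In 5 consecutive genes the log2 change lay between -6.57 and -5.23. They were Slc2a6, a sugar transporter (-5.23 ± 0.16), the antisense gene Gm13398 (-6.57 ± 0.74), Mymk, Adamtsl2, and Dbh, the dopamine beta-hydroxylase gene (-6.44 ± 0.26), each past the threshold in limma. Slc2a6 had 2648, 2516 and 2675 normalised counts in control and 80.4, 67.8 and 59.2 in the knockdown. Dbh had 824, 733 and 813 counts in control and 11.6, 6.69 and 6.71 in the knockdown, which is a few reads per library. Such low values make the size of a fitted change depend on the pseudocount, for Dbh and Gm13398 as for Cav3 and Ano5 among the genes named later.

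On either side the changes were smaller. Cacfd1, at -62.3 kb from the Mymk start and next to Slc2a6, had a log2 change of 0.21 ± 0.11 (limma, adjusted p = 0.16). Sardh, beyond Dbh at 176 kb, was at -0.67 ± 0.29 (limma, adjusted p = 0.10). Of the 14 tested genes of the window other than Mymk and Adamtsl2, 5 fell and 1 rose (Surf1, by 0.93 ± 0.15). Over all genes tested, 23.5% were called lower and 21.7% higher. Surf4 and Rexo4 fell by 0.52 and 0.57, and both calls were lost with any control library left out (limma, adjusted p = 0.10 to 0.12) and without knockdown library 2 (0.053 and 0.060), and that of Surf4 also without knockdown library 1 (0.064).

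**Figure D4:**
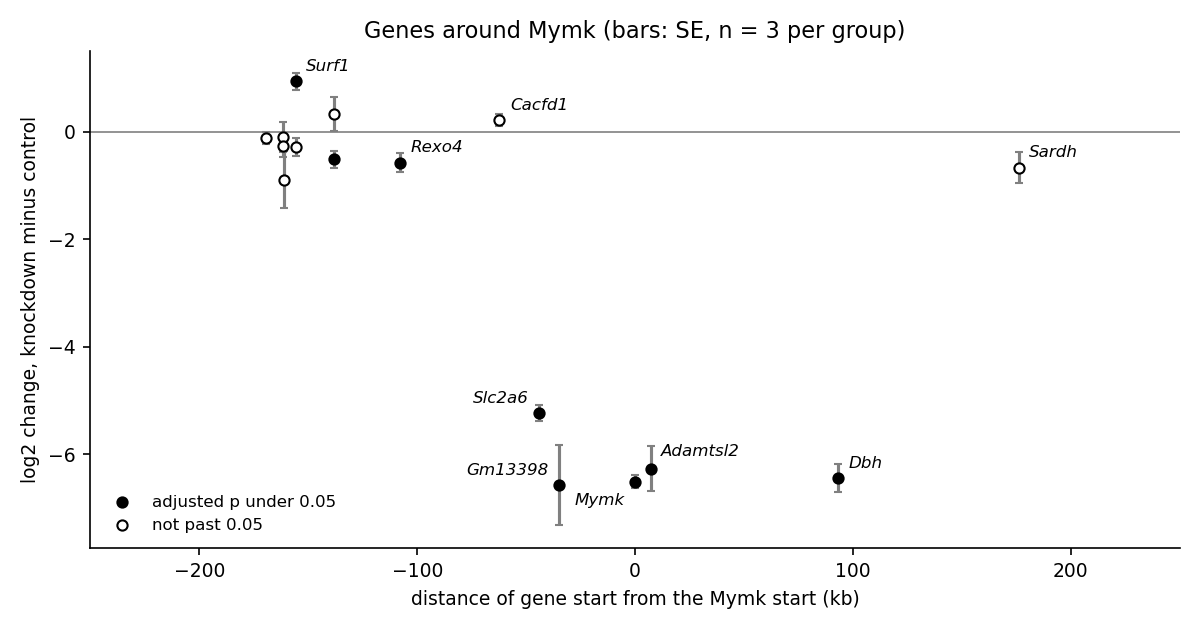
Log2 change, knockdown minus control, of tested genes whose start lies within 250 kb of the Mymk start, against the distance in kb, with SE bars and filled points for an adjusted p under 0.05. The 5 genes from Slc2a6 to Dbh lie between -6.57 and -5.23, and the others between -0.89 and 0.93.

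Other genes of the fusion pathway were grouped by role in 5 lists. Among 17 tested relatives and activators of the ELMO, DOCK and Rac proteins, 3 rose, 3 fell and 11 did not pass, or 35.3% called against 45.2% of all genes, with a median log2 change of -0.32. Rac3, a paralog of Rac1, went from 118, 106 and 125 normalised counts to 1028, 982 and 983. It was higher in each knockdown library by a similar amount, with a log2 change of 3.09 ± 0.13 (limma, adjusted p = 2.8e-05). Rhog, a GTPase that recruits ELMO, rose by 0.51 ± 0.11 (limma, adjusted p = 0.012, and 0.052 to 0.057 without any 1 control library). Tiam2, a Rac exchange factor, rose by 0.93 ± 0.26 (limma, adjusted p = 0.027, and 0.077 to 0.094 with any library other than knockdown 3 left out).

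The genes of this list that fell were Trio, Bcar1 and Elmo3. Trio, an exchange factor for Rac, had 13651, 13997 and 11952 counts in control and 3970, 3818 and 1553 in the knockdown (log2 -2.20 ± 0.38; limma, adjusted p = 0.0046). Bcar1, a scaffold that couples adhesion to Crk and DOCK1, fell by 0.99 ± 0.12, and Elmo3, a paralog of Elmo1, by 1.40 ± 0.30 (limma, adjusted p = 0.012, and 0.054 without control library 3). The genes Dock3, Rac2, Adgrb1 and Adgrb3 of this list were not analysed here. Without knockdown library 3, 8 of the 17 were higher and 6 lower, or 82.4% called against 78.5% of all genes, and the median was 0.026.

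Of 26 genes of actin nucleation downstream of Rac and Cdc42, 6 rose, 3 fell and 17 did not pass. This was 34.6% called against 45.2% of all genes, with a median log2 change of 0.18. Cyfip2, a subunit of the WAVE complex, had 1714, 1766 and 1557 normalised counts in control and 15.8, 7.53 and 15.7 in the knockdown. Its log2 change of -6.97 ± 0.30 (limma, adjusted p = 2.8e-05) was about as large as those of the fusogens, while its paralog Cyfip1 was at -0.034 ± 0.14 (limma, adjusted p = 0.86). Baiap2, which links Rac to WAVE, rose by 2.25 ± 0.21, the kinase Pak1 by 1.09 ± 0.16 and Actr2, a core Arp2/3 subunit, by 0.63 ± 0.10. Wipf3, of the WASP-binding family, fell by 3.29 ± 0.59 and the Arp2/3 subunit Arpc3 by 0.63 ± 0.11. Without knockdown library 3, 14 were higher and 10 lower (92.3% against the 78.5% of all genes).

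Of 19 tested fusion receptors and adhesion partners, 10 fell, 2 rose and 7 did not pass. This was 63.2% called against 45.2% of all genes, with a median log2 change of -0.89. Itgb1bp2, a muscle protein that binds beta-1 integrin, had 11169, 10424 and 11280 normalised counts in control and 37.3, 41.8 and 59.2 in the knockdown (log2 -7.89 ± 0.19). Kirrel3, an immunoglobulin-type adhesion protein, fell (log2 -4.94 ± 0.16), as did Adam12, a transmembrane metalloprotease of fusing muscle cells (log2 -4.78 ± 0.33). The tetraspanin Cd9 rose by 0.87 ± 0.17 (limma, adjusted p = 0.0074). The integrin gene Itga4 was not analysed here. Without knockdown library 3, 12 were lower and 7 higher, so all 19 were called (100% against 78.5%).

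Ferlin relatives and partners were called in 10 of 14 cases (71.4% against 45.2% of all genes), 5 higher and 5 lower. Their median log2 change was -0.36. Of 4 annexins, which bind membranes in the presence of calcium, Anxa1, Anxa5 and Anxa2 rose by 1.53 ± 0.11, 1.57 ± 0.12 and 0.96 ± 0.18. Anxa6 fell by 1.15 ± 0.24 (limma, adjusted p = 0.0097). Anxa1 had 7034, 6864 and 7267 normalised counts in control and 19713, 20232 and 20968 in the knockdown, with library 3 close to the others. Trim72, a membrane repair protein, had a log2 change of -8.75 ± 0.23. Cav3, the muscle caveolin, went from 5262, 4807 and 5620 counts to 5.80, 1.67 and 13.4, a log2 change of -9.67 ± 0.59. Ehd1, an endocytic recycling protein, fell by 1.54 ± 0.14, as did Capn3, the muscle calpain (log2 -2.35 ± 0.28). The other 2 that rose were S100a10, which binds annexin A2 (log2 2.48 ± 0.52), and the large scaffold gene Ahnak (log2 1.19 ± 0.27; limma, adjusted p = 0.014, and 0.051 to 0.070 without control library 1 or 3 or knockdown library 2). The ferlins Otof, Fer1l4 and Fer1l6 were not analysed here, and without knockdown library 3 the counts were 6 higher and 6 lower (85.7% against 78.5%), with a median of 0.14.

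Of 14 tested genes of membrane bending and remodelling, 4 rose, 5 fell and 5 did not pass. This was 64.3% called against 45.2% of all genes, with a median log2 change of -0.40. Bin1, which curves membranes into tubules, had 68718, 68284 and 71776 normalised counts in control and 8493, 8697 and 13275 in the knockdown (log2 -2.81 ± 0.21). Pacsin3, of the same type of membrane-bending proteins, fell by 1.87 ± 0.15, and Ano5, a muscle anoctamin, by 5.92 ± 0.88. Arhgap10 and Arhgap26, GTPase-activating proteins, rose by 1.18 ± 0.10 and 1.70 ± 0.31, and the scramblase gene Xkr8 by 0.89 ± 0.17. The genes named in these lists passed the threshold in limma unless a larger adjusted p is given, and Amph and Wasf3 were not analysed here. Without knockdown library 3, 5 of the 14 were higher and 8 lower (92.9% against 78.5%).

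**Figure D5:**
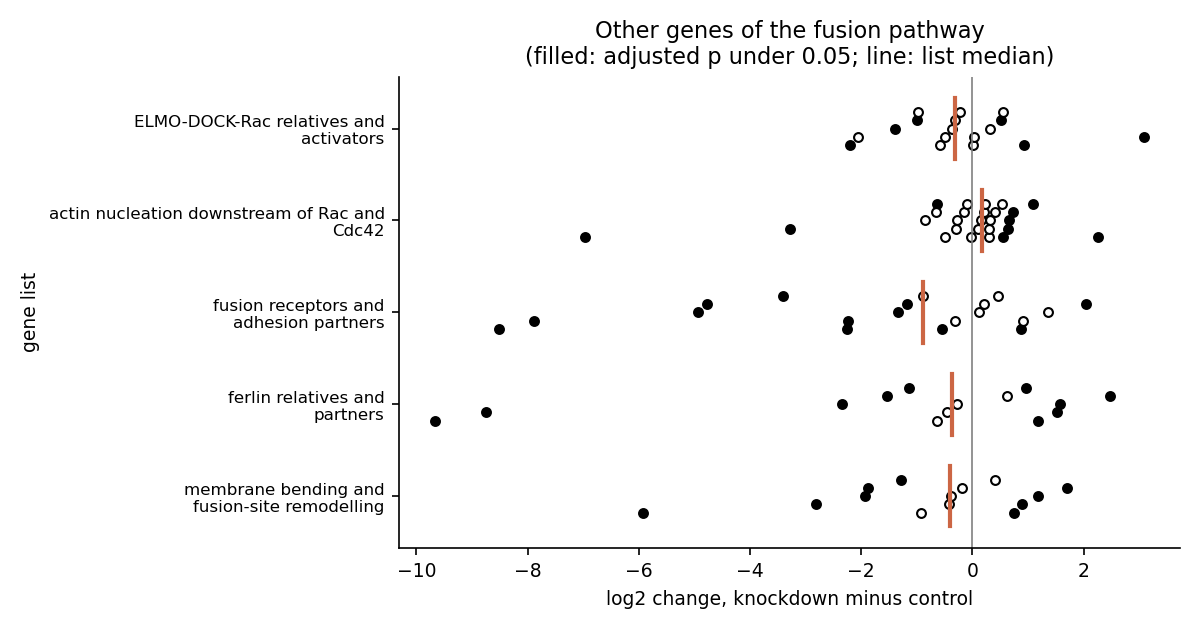
Log2 change, knockdown minus control, of each tested gene of the 5 pathway lists, filled where the adjusted p is under 0.05, with a line at the list median. Medians run from -0.89 (fusion receptors and adhesion partners) to 0.18 (actin nucleation), and the lowest points are Cav3, Trim72, Cd36, Itgb1bp2 and Cyfip2.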

How the data were processed

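Sample titles gave the groups and replicate numbers. The submitters' processing notes name Trimmomatic 0.36, Subread 1.5.2 with featureCounts, DESeq2 and GRCm38, with no aligner, annotation release or strand setting. In the deposited table each gene has 1 signal per library, a normalised count, and per the file headers also the authors' log2 fold change, p-value and adjusted p-value. In every library, 100% of the values divided by the worth of 1 read gave whole reads (tolerance 0.01), which were recovered. GENCODE M21 (GRCm38) gave position and exonic length for 16812 genes and none for 42.

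Limma 3.58.1 in R 4.3.3 was fitted with a mean-variance trend to log2(value + 1), which understates changes of low genes, for the 16245 genes reaching 10 in 3 or more libraries. Tests are two-sided, and p-values were adjusted by Benjamini-Hochberg over all genes tested, at 0.05. Log2 changes are given with their SE. On recovered reads, edgeR 4.0.16 called 7344 genes and DESeq2 1.42.0 called 8461, against 7342 in limma. Ratios within libraries were compared by an exact permutation test (scipy 1.17.1). Levels per kilobase divide by exonic length. The limma fit was tested on simulated reads that had the spread among control libraries. That simulation covered neither a departure such as that of knockdown library 3 nor as many changed genes as were called here.

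The members and lists were chosen with earlier results of these data known. The rule for named genes took the 10 members, Adamtsl2, up to 3 genes per direction with the smallest adjusted p in each of 5 lists, genes within 250 kb of Mymk, and the 3 genes most like each of Mymk, Mymx, Vcam1 and Elmo1 in profile. Cyfip1, Itgb1, Cd36, Anxa6, Capn3, S100a10, Ahnak, Daglb and the marker genes were named outside it, after their values were seen, and 1 gene the rule took is not reported here. Libraries of a group differed by more than sampling noise (chi-square of 3.75 per gene or more), so none was merged.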

Additional observations from a re-analysis of the deposited data

How the results depend on the processing

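Mymk, Mymx, Vcam1, Elmo1 and Dysf kept their direction and call under all 14 alternatives. With 1 library left out they ranged from -6.60 to -6.45, -6.27 to -5.93, 2.50 to 2.73, 3.58 to 3.97 and -3.10 to -2.60 (log2). Rac1 (-0.55 to -0.036) passed under none. Elmo2 ranged from -0.40 to 0.37, Dock1 from 0.55 to 1.14, Dock5 from -0.33 to 0.34 and Myof from -0.023 to 0.76, each highest, and past the threshold, without knockdown library 3. Myof was below 0 without knockdown library 1 or 2 (-0.023 and -0.010), and Dock5 above 0 without control library 2 (0.032). Elmo2 and Dock5 were above 0 in edgeR (0.044 and 0.037) and DESeq2 (0.028 and 0.022), and Dock1 passed in DESeq2 (0.85, adjusted p = 0.033).

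With 1 library left out, genes called ranged from 2443 to 6269 higher and 2648 to 6485 lower, members from 2 to 6 higher and 3 to 3 lower, and list members higher and lower as follows: ELMO, DOCK and Rac relatives 1 to 8 and 2 to 6; actin nucleation 3 to 14 and 3 to 10; receptors and adhesion 2 to 7 and 8 to 12; ferlin partners 4 to 6 and 5 to 6; membrane bending 3 to 5 and 3 to 8. Receptors higher were 1 with a minimum of 50 (fewer genes tested) and 4 in DESeq2. Med22 ranged from -0.26 to 0.22, and Cyfip1 from -0.096 to 0.088, both highest without knockdown library 3, and Cyfip1 was at 0.0057 in edgeR. Log2 ratio shifts ranged from 3.50 to 4.06, 0.79 to 0.90, 3.07 to 3.36 and -0.54 to -0.18. The cause of these differences was not tested. Pseudocounts of 0.5 and 5, no filter and TMM scaling changed no call of a member. The median change of all genes was 0.11 in edgeR.

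Same-numbered libraries correlated in their deviations at 0.0169, 0.105 and 0.143, and differently numbered ones at -0.147 to 0.116. Controls 1 and 3 correlated best with the knockdown library of the same number. Control library 2 correlated slightly better with knockdown library 1 (0.116) than with knockdown library 2 (0.105). All these correlations were small, and the numbers were not taken to pair samples. A replicate block gave 3010 higher and 3301 lower genes, and 2 higher and 3 lower members. It left Rhog, Surf4 and Rexo4 at adjusted p = 0.051, 0.086 and 0.063.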

Other observations

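Likeness to a member was measured over the 6 libraries as the root mean square difference of log2(value + 1) profiles, each centred on its mean, among 11811 other genes whose mean reached 100. The profiles most like Mymk were those of the homeobox gene Pknox2 (0.0897), the myogenic factor Myog (0.0948) and Dbh (0.151), with log2 changes of -6.37, -6.36 and -6.44. Mymx ranked 18 for Mymk, at 0.306. Camk2a, a calcium-dependent kinase (0.167), and the antisense gene Gm15816 (0.207) were most like Mymx. For Vcam1 they were Syt17, a synaptotagmin (0.0406), Akr1c14, a steroid-metabolising reductase (0.0815), and Gm20559 (0.0968). For Elmo1 they were Chmp4c, of the membrane-remodelling ESCRT family (0.104), Rapgef3, an exchange factor for Rap (0.170), and 1700020L24Rik (0.191). With 2 groups, the measure mostly reflects the size of the change, and it says nothing of shared function.

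Runs of neighbouring genes with a log2 change of -5 or lower were counted along all chromosomes, with that threshold set after the values around Mymk were seen. Of 16206 tested genes with a position, 420 (2.59%) reached it. Runs of at least 5 consecutive tested genes were found 3 times. One was the run of Slc2a6, Gm13398, Mymk, Adamtsl2 and Dbh on chromosome 2. Another, on chromosome 1, held Chil1, Mybph, Adora1, Myog and Ppfia4. The longest, of 8 genes on chromosome 11, held the skeletal myosin heavy chain genes Myh3, Myh2, Myh1, Myh4 and Myh8 with 3 noncoding or unnamed neighbours. Distances between neighbours were not limited, and near-identical myosin genes can share reads.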
